A study of Homo sapiens with 6 samples.

Results

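The promoters of 73 genes that encode developmental transcription factors were examined in OCI-AML3, a human cell line from acute myeloid leukemia (AML) with mutations of NPM1 (mtNPM1), DNMT3A and NRAS. The genes were all autosomal protein-coding genes whose symbol starts with PAX, LHX, DLX, TBX, NKX or SOX and a digit, together with the genes of the sine oculis family. They were 73 of the 18965 autosomal protein-coding genes of the annotation, and 2 further genes of these families on the X chromosome were left out. The families held 9 PAX, 8 LHX, 6 sine oculis, 6 DLX, 12 TBX, 14 NKX and 18 SOX genes.

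ChIP-seq of acetylated lysine 27 of histone H3 (H3K27Ac) and of trimethylated lysine 4 of histone H3 (H3K4me3) was performed after CRISPR-Cas9 editing with either of 2 guide RNAs, a control (sgNeg) and sgNpm1A, which targets mtNPM1. The labels give 3 days of culture, whereas the text of the study gives a longer time. Every label names the same cell line, and there was 1 library for each guide RNA and mark. With no replicate, no difference between sgNeg and sgNpm1A could be tested, and each statement on a guide RNA describes a pair of libraries. The 2 input libraries were not analysed here. Although OCI-AML3 is the line in every label, the names of the H3K27Ac lists bear the tag OCI2 and those of the H3K4me3 lists the tag OCI3, and neither tag is explained. The study also used OCI-AML2, a line with wild-type NPM1. Whether both marks were measured in the same cell line was therefore not settled, and every count below that joins the marks rests on the labels for this.

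These proteins bind DNA through paired boxes, homeodomains, T-boxes or HMG boxes and set the identity of tissues in the embryo, and most are silent in blood. H3K4me3 is found at active promoters and at CpG-rich promoters of many silent genes, whereas H3K27Ac is found at active promoters and enhancers. In stem cells, many promoters of these families carry H3K4me3 together with H3K27me3, the mark of Polycomb complexes, which cannot sit on the same lysine as acetylation. H3K27me3 was not among the marks measured here, so that H3K4me3 without H3K27Ac is described below as that and nothing more.

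A gene was said to carry a mark where a deposited peak overlapped the 1 kb on either side of any of its transcript starts. The H3K27Ac lists are on GRCh37 and the H3K4me3 lists on GRCh38, so that the marks were joined by gene symbol. The lists were long, with 327715 and 317059 H3K27Ac peaks in sgNeg and sgNpm1A and 353628 and 106641 H3K4me3 peaks. Many of these peaks were weak, and windows of the same size lying 20 kb away from the starts of the 73 genes, up- or downstream, held a sgNeg peak in 47.9% of cases for either mark. Counts are therefore given for all peaks and for peaks with a deposited q-value under 1e-05, of which there were 9422 for H3K27Ac and 81307 for H3K4me3 in sgNeg. The q-value limit admits far more H3K4me3 than H3K27Ac peaks, and H3K4me3 without H3K27Ac is more frequent under it at all promoters. H3K27Ac peaks were called as broad and H3K4me3 peaks as narrow. A q-value or a fold enrichment over background is therefore not the same measure for both marks. The genes are always set beside the 18892 other autosomal promoters. Intervals are 95% Wilson intervals, which cover counting error only. A bulk peak does not tell apart more cells with a mark from more of the mark per cell.

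Among promoters of 12 myeloid identity genes, 5 carried both marks in sgNeg at a q-value under 1e-05 (SPI1, CEBPA, ELANE, HOXA9 and MEIS1). MPO, CD33, PRTN3, LYZ, CSF3R, FLT3 and KIT did not. This share was 41.7% (19.3 to 68.1), an interval that includes the 35% of other promoters. Of 4 erythroid, 6 lymphoid and 6 epithelial or mesenchymal marker genes, 0 did. With all peaks the order differed. Both marks then lay at 9 of 12 myeloid, 1 of 4 erythroid, 4 of 6 lymphoid and 6 of 6 epithelial or mesenchymal genes, against 73.5% of other promoters. At the NPM1 promoter, the highest peak had a fold enrichment over background of 7.02 for H3K27Ac and 10.6 for H3K4me3 in sgNeg, and neither sgNpm1A list held a peak there. The mutant exon lies far from the promoter, so this is no check of the guide RNA.

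The sequences upstream of 3 of the genes show the range of promoters in the set. SOX4 had the highest peaks of both marks, NKX6-1 had strong peaks of both marks, and SOX1 had no peak in any list. Each line gives the 250 bases before the canonical start, 5′ to 3′ on the strand of the gene, with CG dinucleotides in capitals. The bases come from GRCh37 and the starts from GENCODE. NKX6-1 and SOX1 were chosen after their values were seen.
SOX4: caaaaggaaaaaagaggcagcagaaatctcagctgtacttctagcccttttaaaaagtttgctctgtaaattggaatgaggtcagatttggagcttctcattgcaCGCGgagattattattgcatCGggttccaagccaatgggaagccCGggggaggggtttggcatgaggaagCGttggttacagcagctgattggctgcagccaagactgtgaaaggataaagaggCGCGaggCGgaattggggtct
NKX6-1: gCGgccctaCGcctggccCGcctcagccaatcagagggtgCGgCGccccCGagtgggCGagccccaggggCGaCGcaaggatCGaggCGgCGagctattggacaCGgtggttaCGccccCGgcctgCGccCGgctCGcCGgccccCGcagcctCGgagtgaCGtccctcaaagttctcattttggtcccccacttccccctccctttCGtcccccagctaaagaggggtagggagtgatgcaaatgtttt
SOX1: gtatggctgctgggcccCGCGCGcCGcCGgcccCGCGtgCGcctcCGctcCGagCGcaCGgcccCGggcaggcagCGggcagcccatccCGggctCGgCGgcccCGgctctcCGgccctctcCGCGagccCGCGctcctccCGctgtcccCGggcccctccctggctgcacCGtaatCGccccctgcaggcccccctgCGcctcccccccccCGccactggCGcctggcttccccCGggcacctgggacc
The SOX4 stretch lies at chr6:21593732-21593981 on the plus strand and holds 8 CG dinucleotides. The NKX6-1 stretch lies at chr4:85420446-85420695 on the minus strand and holds 23. The SOX1 stretch, at chr13:112721213-112721462 on the plus strand, holds 31. The promoter with the strongest marks thus has the fewest CG dinucleotides of the 3, and the promoter with no peak has the most. This order did not hold over the set. In the 1 kb around the canonical start, the median ratio of observed to expected CG dinucleotides was 0.788 for the 9 genes with both marks at a q-value under 1e-05. It was 0.747 for the 44 with neither. The SOX4 and NKX6-1 stretches also lie before the promoter peaks, which start 79 and 13 bp downstream of the canonical start at the nearest. Over all 73 genes, the median was 18 CG dinucleotides in these 250 bases, as in the other promoters. The motif GGGCGG, which contains a CG dinucleotide, was found on either strand in 60.3% of the 73 stretches and in 59.5% of the others.

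In sgNeg, the 73 genes carried either mark less often than other promoters did. For H3K4me3, 42 of the 73 genes (57.5%, interval 46.1 to 68.2) had a peak, against 78.2% of the other promoters. For H3K27Ac, 50 (68.5%, 57.1 to 78.0) had a peak, against 82% of the others. With a q-value under 1e-05, 29 (39.7%, 29.3 to 51.2) had H3K4me3 against 60.6%, and 9 (12.3%, 6.62 to 21.8) had H3K27Ac against 37.3%. In the shifted windows, strong H3K4me3 peaks lay at 18.5% of the 73 genes, so that the genes stood 2.15 times above their own surroundings, against 2.56 times for other promoters (23.7% in shifted windows). Strong H3K27Ac peaks lay at 1.37% of the shifted windows, a mean of 1 gene (0 upstream and 2 downstream). The genes thus stood 9 times above their surroundings, and other promoters 3.48 times (10.7% in shifted windows). The ratio of 9 rests on too few genes to be ranked against the other.

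**Figure D1:**
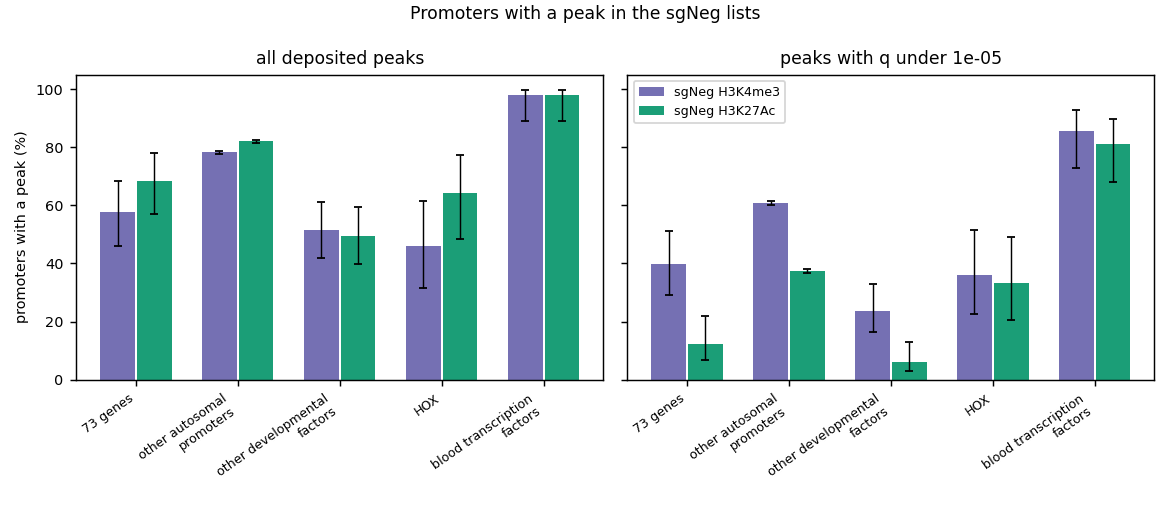
Share of promoters with a peak in the sgNeg lists (y axis, percent), for all deposited peaks (left) and for peaks with a q-value under 1e-05 (right). Bars give H3K4me3 and H3K27Ac, error bars 95% Wilson intervals. At the strict limit the 73 genes reach 39.7% for H3K4me3 and 12.3% for H3K27Ac, below the 60.6% and 37.3% of other promoters and far below blood transcription factors at 85.4% and 81.3%.

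Where the 73 genes had a peak, the highest was lower and narrower. It was taken over all windows of a gene, and the 73 genes had fewer starts (a median of 3, against 5). The part of the number of starts in these values was not tested. The highest H3K27Ac peak had a median fold enrichment of 2.98 (interval of the median 2.85 to 3.23) and a median width of 568.5 bp, against 4.09 and 1529 bp at other promoters. The highest H3K4me3 peak had a median fold enrichment of 4.47 (3.95 to 4.78) and a width of 357.5 bp, against 5.82 and 655 bp. Only 5 of the 73 genes had a H3K27Ac peak within the top 1% of its list (6.85%, against 16.3% of other promoters), and 4 had such a H3K4me3 peak (5.48%, against 18.9%).

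Counting all peaks, 38 of the 73 genes carried both marks in sgNeg (52.1%, against 73.5% of other promoters), 12 carried H3K27Ac alone (16.4%, against 8.47%) and 19 carried neither (26.0%, against 13.3%). H3K4me3 without any H3K27Ac peak was seen at 4 genes (5.48%, 2.15 to 13.3), close to the 4.68% of other promoters. They included SOX7, an endothelial factor, SOX8, of testis and neural crest, and TBX18, of heart and ureter. The H3K4me3 peaks of these 3 were weak, at 15 fragments over the summit for SOX7, 14 for TBX18 and 13 for SOX8, where the lowest peak of the list had 11. Their fold enrichments were 3.33, 3.12 and 2.91. The summit at TBX18 lay 75160 bp downstream of its canonical start, which had no H3K4me3 peak within 1 kb. TBX18 and SOX7 had a H3K27Ac peak in sgNpm1A, at a fold enrichment of 3.04 and 2.79, and SOX8 had none.

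At the strict limit, 20 of the 73 genes carried H3K4me3 without H3K27Ac (27.4%, 18.5 to 38.6, against 25.6% of other promoters), 9 carried both (12.3%, against 35%), 0 carried H3K27Ac alone (against 2.31%) and 44 neither (60.3%, against 37.1%). The share with H3K4me3 alone was thus near that of all promoters, and the share with both marks was lower. Among the 29 genes with strong H3K4me3, 69.0% (50.8 to 82.7) lacked strong H3K27Ac, against 42.3% (41.4 to 43.2) of the other promoters with strong H3K4me3. All 20 had a weaker H3K27Ac peak in the sgNeg list, so that none lacked a deposited H3K27Ac peak. They included DLX2, DLX3, DLX6, LHX4, LHX9, NKX2-6, NKX3-2, NKX6-3, PAX4, PAX5, PAX8, SOX5, SOX10, SOX13, TBX1, TBX2, TBX4, TBX19 and TBX20. PAX8 was the nearest to the limit, with H3K27Ac at 4.24 times background (q-value 1.43e-05), and TBX3, at 4.55 times background (q-value 1.44e-06), was the nearest on the other side.

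At an intermediate q-value limit of 0.01, 24 of the 73 genes had H3K27Ac in sgNeg (32.9%, against 63% of other promoters) and 41 had H3K4me3 (56.2%, against 76.6%). Both marks were found at 22 (30.1%, against 59.6%), H3K4me3 alone at 19 (26.0%, against 17%), H3K27Ac alone at 2, PAX6 and SOX30 (2.74%, against 3.43%), and neither at 30 (41.1%, against 20%). In sgNpm1A, 22 had H3K27Ac (30.1%, against 32.2%) and 18 had H3K4me3 (24.7%, against 25.2%). Of the 41 genes with H3K4me3 at this limit, 46.3% (32.1 to 61.3) lacked H3K27Ac, against 22.2% (21.5 to 22.8) of the others. With equal numbers of peaks for each mark, the 20000 with the lowest p-values in each sgNeg list, 6 of 14 genes with H3K4me3 lacked H3K27Ac (42.9%, 21.4 to 67.4), against 14.5% (13.7 to 15.2) of the others.

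**Figure D2:**
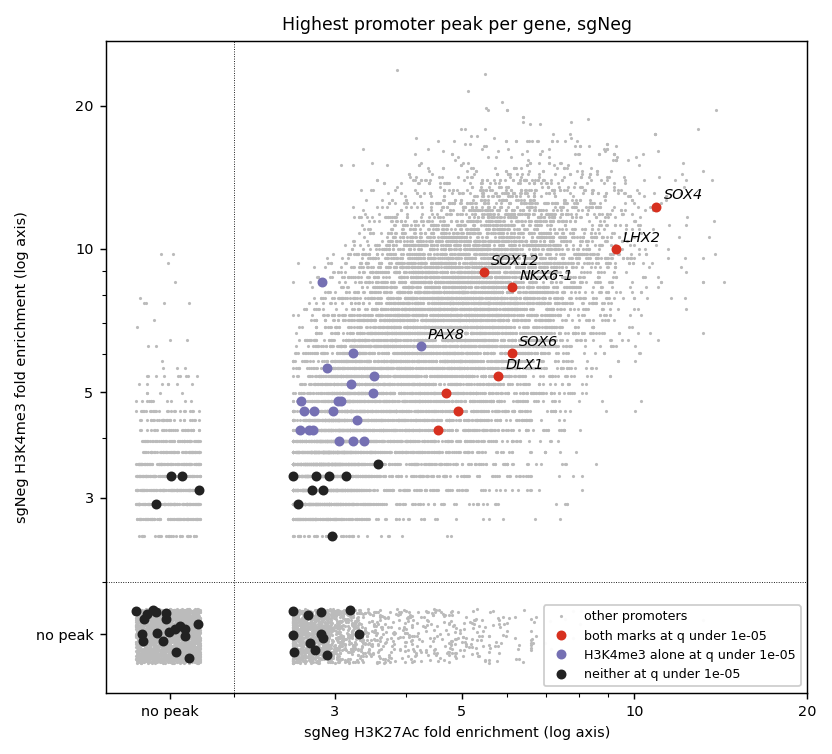
Fold enrichment of the highest promoter peak in sgNeg for H3K27Ac (x axis) and H3K4me3 (y axis), both on log axes, with promoters without a peak placed at random positions in the strips below the dotted lines. Grey points are other promoters and colored points are the 73 genes by their marks at a q-value under 1e-05. The 20 genes with H3K4me3 alone lie at H3K27Ac values of 2.61 to 4.24, and SOX4 and LHX2 lie at the upper right.

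The 9 genes with strong peaks of both marks were SOX4, LHX2, NKX6-1, SOX6, DLX1, SOX12, TBX6, SIX5 and TBX3. In each, peaks of both marks lay within 1 kb of the same transcript start.

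SOX4, an HMG-box factor expressed in blood progenitors and early lymphoid cells, had the highest peak of both marks. Its H3K27Ac peak reached a fold enrichment of 10.9 over 5088 bp (GRCh37 chr6:21594061-21599148), and its H3K4me3 peak reached 12.3, or 58 fragments, over 3146 bp (GRCh38 chr6:21593902-21597047). Neither sgNpm1A list held a peak within 1 kb of its start or within 10 kb on either side. The sgNeg lists held a further H3K27Ac peak from 6772 to 3984 bp upstream at a fold enrichment of 7.31.

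LHX2, a LIM-homeodomain factor of forebrain and eye that can expand blood progenitors in culture, had the broadest highest peak for H3K27Ac among the 73 genes. It spanned 15627 bp (GRCh37 chr9:126769411-126785037) at a fold enrichment of 9.28 in sgNeg. In sgNpm1A the highest H3K27Ac peak in its windows, which did not overlap the former, reached 2.93 over 744 bp. The H3K4me3 peak reached 9.98, or 47 fragments, in sgNeg, and sgNpm1A had none. Within 10 kb on either side, H3K27Ac peaks covered 78.9% of the bases in sgNeg and 9.58% in sgNpm1A.

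SOX12, of the same SOX group as SOX4, had a H3K27Ac peak of 5.46 over 6496 bp and a H3K4me3 peak of 8.94, or 42 fragments, in sgNeg, and no promoter peak in sgNpm1A. NKX6-1, a homeodomain factor of pancreatic beta cells and motor neurons, had 6.12 over 3151 bp for H3K27Ac and 8.32, or 39 fragments, for H3K4me3. It too had no promoter peak in sgNpm1A. The H3K4me3 peak started 53 bp downstream of the canonical start at SOX12 and 32 bp downstream at NKX6-1.

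DLX1, a distal-less homeodomain factor of interneurons, had a H3K27Ac fold enrichment of 5.78 in sgNeg and 2.81 in sgNpm1A, with a H3K4me3 peak of 5.41 in sgNeg and none in sgNpm1A. SOX6, which takes part in the silencing of fetal globin, had 6.12 for H3K27Ac and 6.03 for H3K4me3 in sgNeg and no peak in sgNpm1A. Its peaks lay at an upstream start, with the H3K4me3 summit 382690 bp upstream of the canonical start, in a window that also holds a start of the neighbouring gene C11orf58. The signal there cannot be told apart between both genes.

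TBX6, a T-box factor of paraxial mesoderm, had 4.92 for H3K27Ac and 4.58 for H3K4me3 in sgNeg. The H3K4me3 summit at TBX6 lay 1579 bp downstream of its canonical start, which had no H3K4me3 peak within 1 kb. SIX5, a homeodomain factor expressed in many tissues, had 4.68 and 4.99. TBX3, a T-box factor of limb and heart, had 4.55 and 4.16. In sgNpm1A, TBX6 had a H3K27Ac peak of 2.84, and neither SIX5 nor TBX3 had a peak of either mark, nor TBX6 a H3K4me3 peak.

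**Figure D3:**
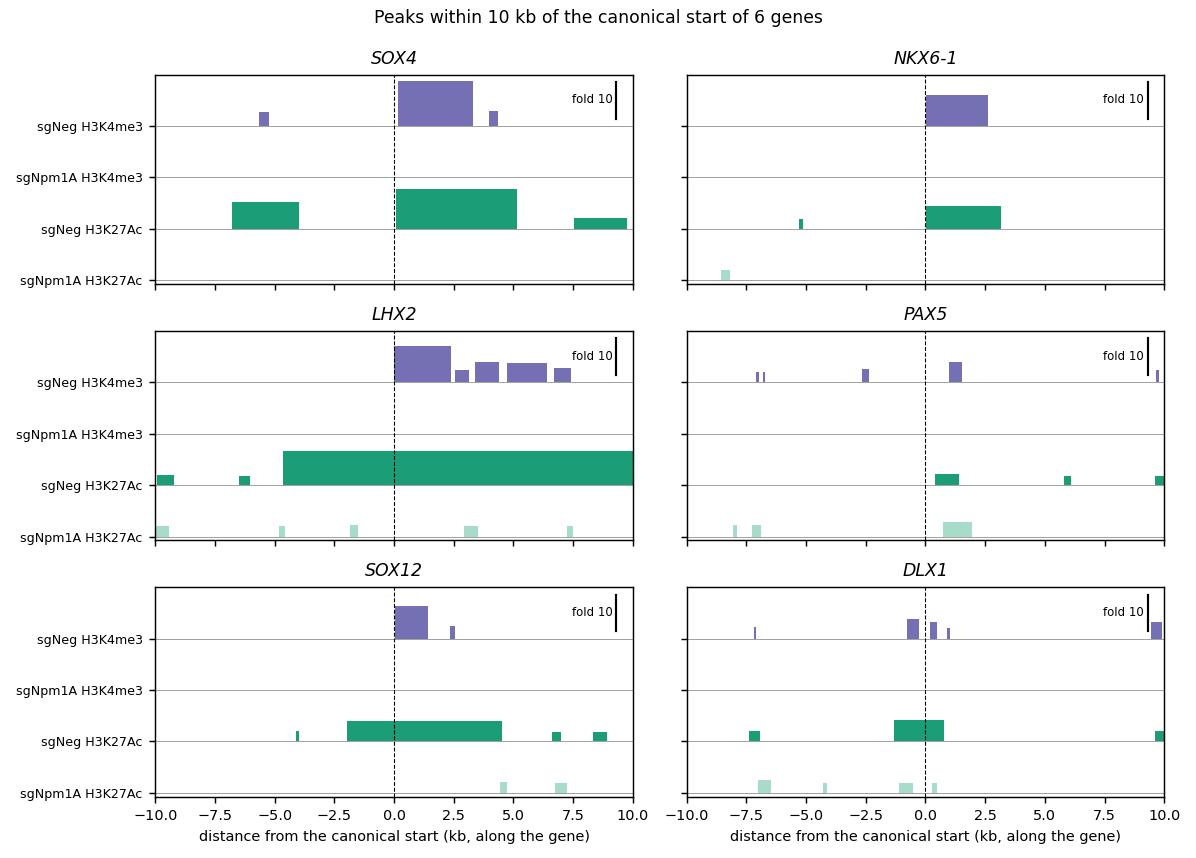
Peaks within 10 kb of the canonical start of 6 genes (x axis, distance in kb along the gene, with the start dashed), in the 4 lists. The width of each box is that of the peak and its height the fold enrichment, with a bar for a fold of 10. SOX4, LHX2, SOX12 and NKX6-1 have a tall sgNeg H3K4me3 box just after the start and no sgNpm1A H3K4me3 box. PAX5 has a H3K4me3 box of 5.62 with lower H3K27Ac boxes in sgNeg.

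The genes named above with strong H3K4me3 alone had H3K4me3 fold enrichments of 3.95 to 6.24. PAX8, a factor of thyroid and kidney, led them with 6.24 (29 fragments). The summit of its H3K4me3 peak lay 42344 bp downstream of its canonical start, which had no H3K4me3 peak within 1 kb in sgNeg. SOX5 followed with 6.03 (28 fragments), but its H3K4me3 peak lay 612383 bp upstream of its canonical start and its H3K27Ac peak lay at another start. SOX5 and PAX2 were the only 2 of the 38 genes with both marks whose marks were never within 1 kb of the same start.

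PAX5, the factor that commits cells to the B lineage, had 5.62 for H3K4me3 (26 fragments) and 2.91 for H3K27Ac in sgNeg. The summit of that H3K4me3 peak lay 1290 bp downstream of the canonical start, which had no H3K4me3 peak within 1 kb. In sgNpm1A, the highest H3K4me3 peak of PAX5 was 3.05 (11 fragments) and lay at another start, and its highest H3K27Ac peak was 4.06. TBX20, of the heart, had 5.41 and 3.51 for H3K4me3 and H3K27Ac in sgNeg, and LHX4, of the pituitary, 5.20 and 3.20.

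The 12 genes with H3K27Ac and no H3K4me3 in sgNeg were DLX5, NKX2-3, NKX2-4, PAX1, PAX6, SIX2, SOX15, SOX18, SOX21, SOX30, TBX15 and TBX21. Their H3K27Ac fold enrichments ran from 2.54 to 3.31, so that none was strong. SOX30, a factor of male germ cells, had 3.31, PAX6, of eye and brain, 3.19, SOX15 2.90 and PAX1 2.87. TBX21, which encodes the T-bet factor of T helper and natural killer cells, had 2.77. NKX2-3, a factor of spleen and gut vessels, had 2.55, near the lowest value of the list. SOX18, of blood and lymph vessels, had 2.85, but its window also holds a start of TCEA2. SOX17, of endoderm and fetal blood stem cells, had both marks, at 2.97 for H3K27Ac and 2.50 for H3K4me3, the latter at the lowest pileup of the list.

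The 19 genes with neither mark in sgNeg were LHX5, LHX8, NKX1-1, NKX1-2, NKX2-1, NKX2-2, NKX2-5, NKX2-8, NKX6-2, PAX3, PAX7, SIX3, SIX4, SIX6, SOX1, SOX9, SOX11, SOX14 and TBX5. They include factors of the neural tube (SOX1, NKX2-2), heart (NKX2-5, TBX5), thyroid and lung (NKX2-1), muscle progenitors (PAX3, PAX7) and cartilage (SOX9). NKX genes gave 7 of the 19 and SOX genes 4.

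The families differed in these counts, with few genes in each. No DLX gene lacked both marks, and 4 of 6 had strong H3K4me3, of which DLX1 alone had strong H3K27Ac. Of the 14 NKX genes, 5 had any H3K4me3 peak and all 5 were strong. Of the 6 sine oculis genes, 2 had H3K4me3, and SIX5 alone was strong. Of 12 TBX genes, 9 had H3K4me3 and 7 were strong. Of 9 PAX genes, 5 had H3K4me3, 3 were strong, and none had strong H3K27Ac. Among 18 SOX genes, 10 had H3K4me3 and 6 were strong.

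**Figure D4:**
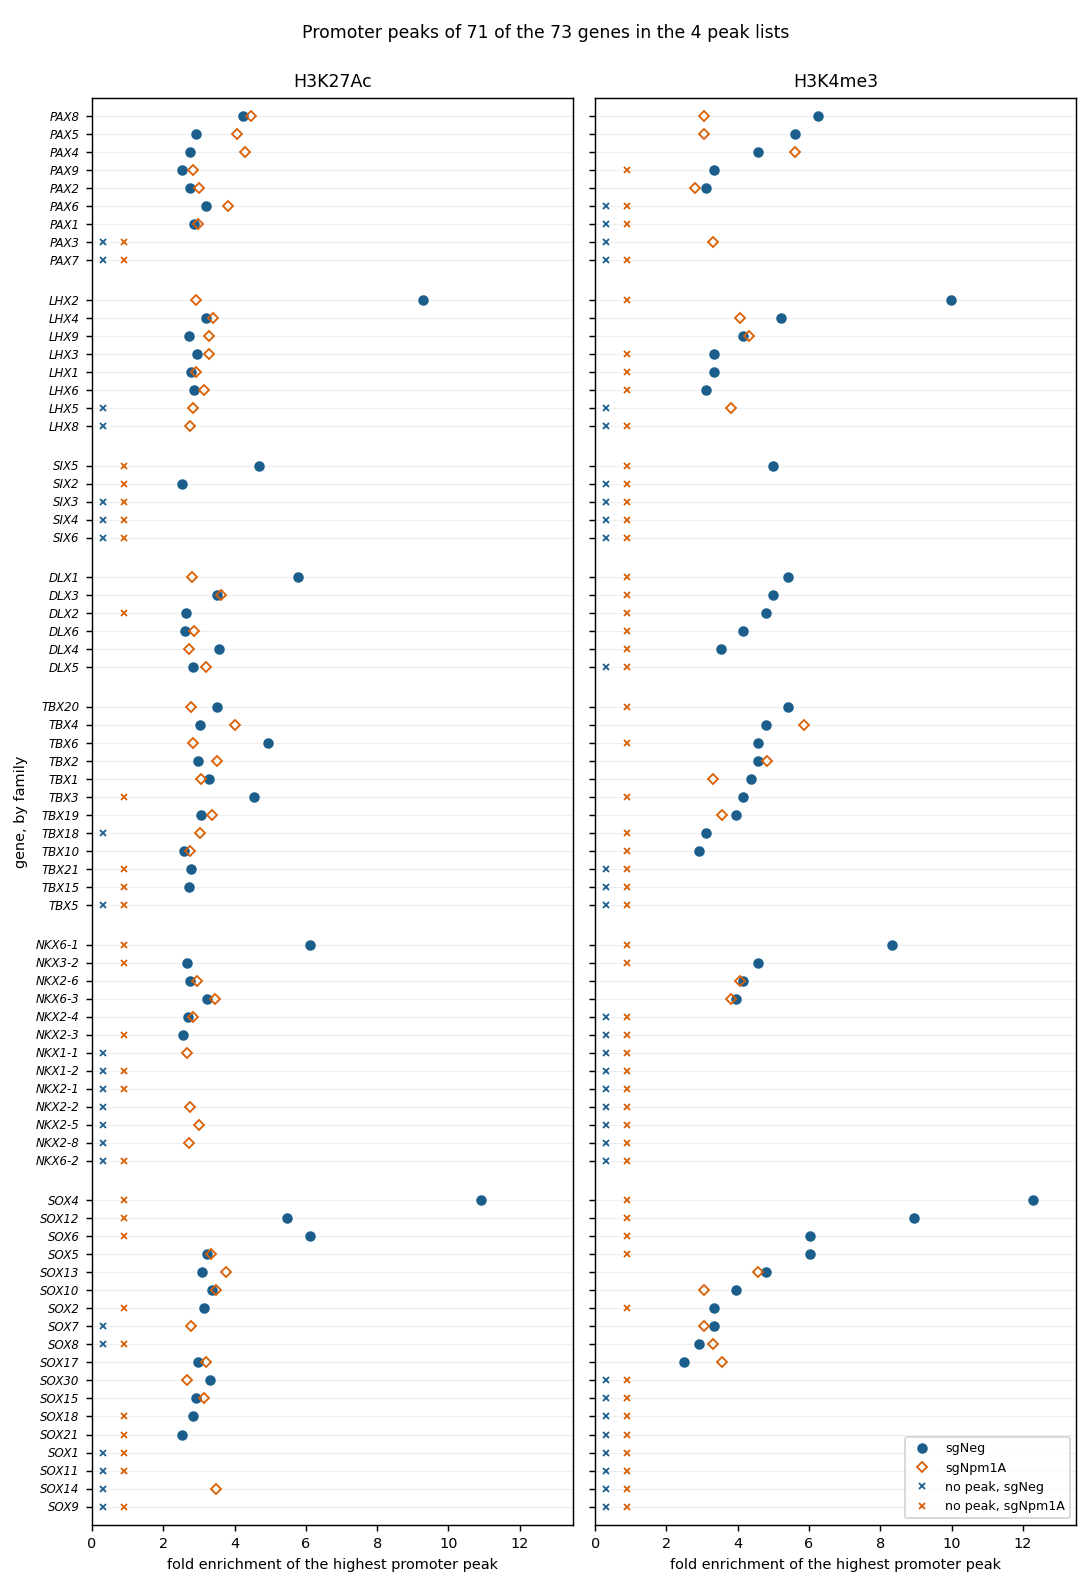
Fold enrichment of the highest promoter peak (x axis) of 71 of the 73 genes (rows, by family and by sgNeg H3K4me3) for H3K27Ac (left) and H3K4me3 (right). Filled circles are sgNeg, open diamonds sgNpm1A, and crosses at the left edge mark no peak. SOX4 and LHX2 stand farthest to the right in sgNeg, and sgNpm1A values stay at or below 4.46 for H3K27Ac and 5.85 for H3K4me3.

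The median CpG content of the 73 genes was near that of other promoters, but fewer of them were CpG-poor. In the 1 kb around the canonical start, the median ratio of observed to expected CG dinucleotides was 0.753, against 0.729 elsewhere, and the median GC content was 63.1%, against 61.5%. The lower quartile of the ratio was 0.632, against 0.413. A CpG-rich start (ratio of at least 0.6 and GC of at least 55%) was found at 55 genes (75.3%, 64.4 to 83.8), against 60.9% of other promoters, and a ratio under 0.4 at 7 (9.59%, 4.72 to 18.5), against 24.6%. At like CpG content the genes carried fewer marks. Of the 55 genes with a CpG-rich start, 56.4% (43.3 to 68.6) had H3K4me3 in sgNeg, against 89.3% of other CpG-rich promoters. Strong H3K4me3 was found at 34.5% of them (23.4 to 47.8), against 77.1%, and strong H3K27Ac at 12.7% (6.30 to 24.0), against 50.1%. Of their strong H3K4me3 promoters, 63.2% (41.0 to 80.9) lacked strong H3K27Ac, against 37.3%. By contrast, all 7 genes with a ratio under 0.4 carried both marks, against 46.9% of other promoters of that class, although 1 of them had strong H3K27Ac. The ratio describes the canonical start, whereas marks were counted at any start. Of these 7 genes, SOX5 and SOX6 had no peak within 1 kb of the canonical start, and PAX8 had no sgNeg H3K4me3 peak there.

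The number of starts also bears on the counts. The 73 genes had a median of 3 starts and 3383 bp of window, against 5 and 4752 bp, and 24 of them (32.9%) had a single start, against 15.0%. Among genes with 1 start, H3K4me3 was found at 37.5% (21.2 to 57.3) of the 24 and 47.7% of the others, and H3K27Ac at 54.2% (35.1 to 72.1) and 54.3%. Strong H3K4me3 was found at 20.8% (9.25 to 40.5) and 28.0%, and strong H3K27Ac at 8.33% (2.32 to 25.9) and 16.4%. Of the 5 such genes with strong H3K4me3, 60.0% (23.1 to 88.2) lacked strong H3K27Ac, against 51.4%. Each of these wide intervals includes the value of the others. With the canonical start alone and the strict limit, 58.8% (36.01 to 78.39) of the 17 genes with H3K4me3 lacked H3K27Ac, against 40.3%, an interval that includes the other promoters. With that start and a q-value under 0.01, 58.1% (40.8 to 73.6) of 31 genes lacked it, against 22.8%, an interval that does not include them.

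Of the 97 other developmental factors, such as FOX, GATA4, IRX and NEUROG genes, 51.5% had H3K4me3 and 49.5% H3K27Ac, and 73.9% (53.5 to 87.5) of those with strong H3K4me3 lacked strong H3K27Ac. Of the 48 blood transcription factors, 97.9% had each mark, and 7.32% (2.52 to 19.4) of those with strong H3K4me3 lacked strong H3K27Ac. At the strict limit, the 73 genes were thus within the interval of the other developmental factors in that share and outside that of the blood factors. With all peaks they were outside both, since 32.0% (20.8 to 45.8) of the other developmental factors with H3K4me3 lacked H3K27Ac, against 9.52% (3.77 to 22.1) of the 73 genes, and 0% (up to 7.56) of the blood factors. The 49.5% (39.8 to 59.3) of other developmental factors with any H3K27Ac peak also lay below the 68.5% of the 73 genes. Of the 39 HOX genes, 35.9% had strong H3K4me3, near the 39.7% of the 73 genes, and 33.3% (20.6 to 49.0) had strong H3K27Ac, against 12.3% (6.62 to 21.8).

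In sgNpm1A, 45 of the 73 genes had a H3K27Ac peak (61.6%, against 60.1% of other promoters) and 19 a H3K4me3 peak (26.0%, against 25.8%), so that the genes did not stand apart. The sgNpm1A lists also separated promoters from their surroundings less, with ratios to shifted windows of 1.17 and 1.15 for the 73 genes and 1.04 for other promoters in either list. At the strict limit, 0 of the 73 genes had H3K27Ac (against 0.937%) and 4 had H3K4me3 (5.48%, against 5.59%). Their shifted windows held such peaks at a mean of 0.5 and 4.5 genes. For other promoters, the ratios to shifted windows at this limit were 0.829 for H3K27Ac and 1.103 for H3K4me3. Strong sgNpm1A peaks were thus hardly tied to promoters. Whether a lower rank or a missing peak in sgNpm1A reflects a change at the promoter itself was not tested. The sgNpm1A lists were sparser at this limit, with 2879 H3K27Ac and 14777 H3K4me3 peaks, and the H3K4me3 background was 2.93 fragments in sgNpm1A and 3.81 in sgNeg. Background was thus lower for H3K4me3 in sgNpm1A. The number of reads was not known, and the part of depth in these counts was not tested.

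Fold enrichment is scaled per list. The rank of the highest promoter peak within its list (as a percentile, 0 for no peak) was set side by side. For H3K27Ac, 28 of the 73 genes ranked lower in sgNpm1A than in sgNeg (38.4%, against 67.8% of other promoters) and 32 ranked higher (43.8%, against 19.2%). For H3K4me3, 37 ranked lower (50.7%, against 73%) and 7 higher (9.59%, against 6.69%). A promoter without a sgNeg peak cannot rank lower. Among those with one, 56.0% (42.3 to 68.8) of the 50 genes with H3K27Ac ranked lower, against 82.7% of other promoters, and 88.1% (75 to 94.8) of the 42 with H3K4me3, against 93.4%. These genes started from lower ranks, which leave less room to fall. Their median sgNeg percentile was 72.8 for H3K27Ac, against 96.5, and 91.3 for H3K4me3, against 97.0. The part of the starting rank was not tested.

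For H3K27Ac, 35 of the 73 genes had a peak in both lists (against 55.1% of other promoters), 15 in sgNeg alone (20.5%, against 26.9%) and 10 in sgNpm1A alone (13.7%, against 5.04%). For H3K4me3, 17 had a peak in both lists (against 24.2%), 25 in sgNeg alone (34.2%, against 54%) and 2 in sgNpm1A alone (2.74%, against 1.51%). Within the top 1% of the sgNpm1A lists, 1 of the 73 genes, PAX8, had a H3K27Ac peak (1.37%, against 1.03%) and 0 had a H3K4me3 peak (against 0.619%).

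The 9 genes with strong peaks of both marks in sgNeg all ranked lower in sgNpm1A for either mark, as did 98.0% of other promoters of that kind for H3K27Ac and 99% for H3K4me3. These genes were chosen for their sgNeg peaks, so that a lower rank in the other list is a description only. None of the 9 had a H3K4me3 peak in sgNpm1A, against 22.97% (21.97 to 23.99) of other promoters with strong peaks of both marks, although for 9 genes the interval reaches 29.9%. For H3K27Ac, 3 of them (LHX2, DLX1 and TBX6) had a sgNpm1A peak, against 60.6% of those other promoters, within the interval of 12.1 to 64.6. Of the 20 genes with strong H3K4me3 alone, 13 had a sgNpm1A H3K4me3 peak (65.0%, 43.3 to 81.9), against 39.7% (38.3 to 41.1) of other promoters of that kind, and 18 had a H3K27Ac peak (90.0%, 69.9 to 97.2), against 73.4%. Chromosome 8 held 5 of the 73 genes and many peaks of the sgNpm1A H3K4me3 list, with 53.3% of its other promoters marked, against 24.7% elsewhere. Without that chromosome the count was 11 of 17 (64.7%, 41.3 to 82.7), against 37.96%. Of all 73 genes, 20 lie on chromosomes 1, 8 and 17, and 10 of these had a sgNpm1A H3K4me3 peak (50.0%, 29.93 to 70.07), against 37.83% of other promoters there. On the other chromosomes, 9 of 53 had one (16.98%, 9.2 to 29.23), against 22.64%. The genes with strong H3K4me3 alone were not counted without chromosomes 1 and 17, so the part of these chromosomes in their higher share was not tested.

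**Figure D5:**
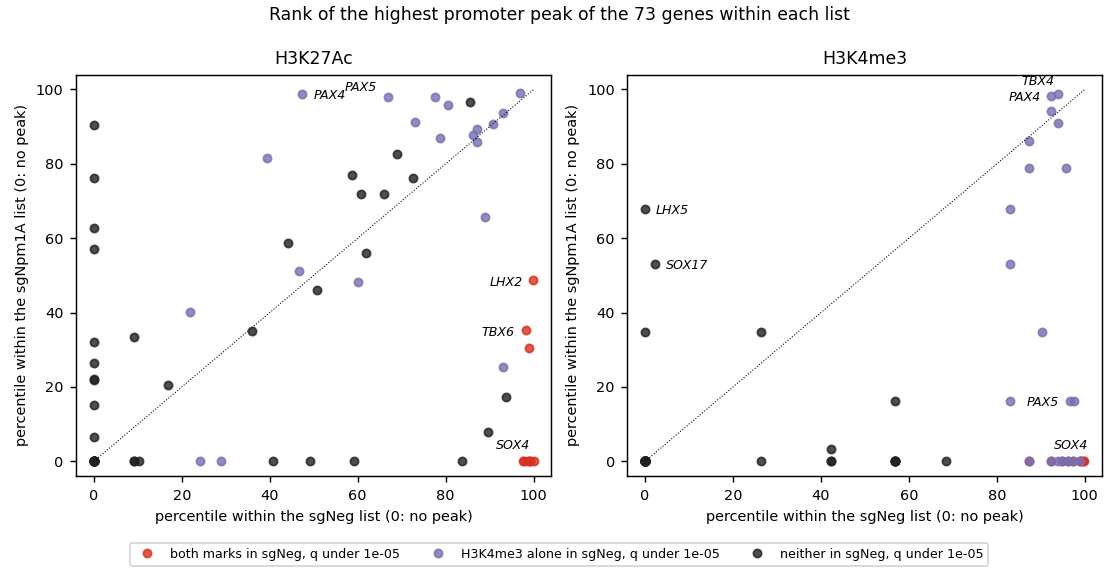
Percentile of the highest promoter peak within the sgNeg list (x axis) and the sgNpm1A list (y axis) for the 73 genes, for H3K27Ac (left) and H3K4me3 (right), with 0 for no peak and the dotted line at equal rank. Colors give the sgNeg marks at a q-value under 1e-05. The 9 genes with strong peaks of both marks (red) lie at the right and far below the line in either panel, and several genes with H3K4me3 alone lie on or above it.

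The 19 genes with a sgNpm1A H3K4me3 peak were LHX4, LHX5, LHX9, NKX2-6, NKX6-3, PAX2, PAX3, PAX4, PAX5, PAX8, SOX7, SOX8, SOX10, SOX13, SOX17, TBX1, TBX2, TBX4 and TBX19. LHX5 and PAX3 had it in sgNpm1A alone, at a fold enrichment of 3.82 and 3.31. The 4 with a q-value under 1e-05 were TBX4, PAX4, TBX2 and SOX13. TBX4, a factor of hindlimb and lung, had 4.78 in sgNeg and 5.85 in sgNpm1A, with 22 fragments in each. PAX4, of pancreatic islets, had 4.58 and 5.60 with 21 fragments in each, at peaks that lay at different starts. TBX2 had 4.58 (21 fragments) and 4.83 (18). SOX13 had 4.78 (22) and 4.58 (17), also at peaks that lay apart. The sgNeg summits lay 8057 bp downstream of the canonical start at TBX2 and 49547 bp downstream at SOX13. Of these 4 genes, TBX4 alone had a sgNpm1A H3K4me3 peak within 1 kb of its canonical start. At TBX4 and TBX2, where the peaks overlapped, equal or fewer fragments thus gave a higher fold enrichment in sgNpm1A, where the background was lower. Of the 17 genes with H3K4me3 in both lists, 12 had some overlapping peaks, but the highest peaks overlapped in 6 (TBX2, TBX4, NKX2-6, NKX6-3, SOX8 and SOX17). Of the 35 genes with H3K27Ac in both lists, the highest peaks overlapped in 19. Elsewhere the values of a gene in sgNeg and sgNpm1A belong to different sites within its windows.

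The other 13 genes of the 19 ran from 2.80 to 4.32 in sgNpm1A. LHX9 was the highest, at 4.16 in sgNeg and 4.32 in sgNpm1A, followed by LHX4 and NKX2-6, each at 4.07 in sgNpm1A, and PAX2 was the lowest, at 3.12 and 2.80.

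The highest sgNpm1A H3K27Ac values were those of PAX8 (4.24 in sgNeg and 4.46 in sgNpm1A), PAX4 (2.76 and 4.29), PAX5 (2.91 and 4.06) and TBX4 (3.04 and 4.01). Those of PAX8 and TBX4 lay apart in the lists. None reached a q-value under 1e-05, and PAX4 came closest at 1.29e-05. For 10 genes H3K27Ac was listed in sgNpm1A alone (43.5%, 25.6 to 63.2, of the 23 without a sgNeg peak, against 28.0% of other promoters without one). TBX21, NKX2-3 and SOX18, with a weak sgNeg H3K27Ac peak, had no peak in sgNpm1A, and SOX17 had 3.19 for H3K27Ac and 3.56 for H3K4me3.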

How the data were processed

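Cells labelled OCI-AML3 were profiled by ChIPmentation, in which chromatin is precipitated and tagmented on the beads by Tn5, with 1 library per guide RNA and mark. Bowtie 1.1.2 and MACS2 2.1.0 are named in the submitters' processing notes. The calling limit and any use of the inputs are not given in the sources used here, and no Tn5 shift was stated. The authors called peaks in each library, broad for H3K27Ac and narrow for H3K4me3. Fold values, as deposited, are a ratio of pileup to background. The −log10 p-value, −log10 q-value and score were deposited too, and the score was not used. The deposited H3K4me3 folds gave whole pileups (within 0.05) for 100% of the peaks with 1 constant background per list, so they hold no local or input correction. Depth per sample is unknown.

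The study's methods name hg38. H3K27Ac peaks on chromosome 1 ended at 249218478, which fits GRCh37 only, and H3K4me3 peaks on chromosome 17 at 83201880, which fits GRCh38 only. GENCODE 44 mapped to GRCh37 gave 396 transcripts of the 73 genes, and the starts on GRCh38 were those recorded there for the same exons, with no conversion. An overlap of at least 1 bp counted, and overlaps were checked with bedtools 2.31.1 and tested on simulated data. Python 3.11.15, pandas 2.3.3, numpy 2.4.6, scipy 1.17.1 and pysam 0.24.0 were used.

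Groups came from the sample titles. No test was run. The genes and the lists of other developmental, blood and marker genes were chosen with earlier results of these data known, and so support nothing by themselves. Genes were named with values by a fixed rule: up to 8 with the highest peaks of either mark among genes with both marks or with H3K4me3 alone, 4 with H3K27Ac alone, every gene with a sgNpm1A H3K4me3 peak, the 4 highest in sgNpm1A H3K27Ac, and genes with a role in blood (PAX5, TBX21, SOX4, NKX2-3, LHX2, SOX17 and SOX18). For 2 of the 73 genes, values of their own are not reported here, and they stand only in the counts. This rule counts all peaks. Outside it, TBX3 was named because it completes the 9 genes with strong peaks of both marks, and TBX20 was added from the genes with strong H3K4me3 alone. The alternatives were other q-value and fold limits, equal numbers of peaks, other windows and starts, a longer overlap, and sets without chromosome 8 or without shared windows.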

Additional observations from a re-analysis of the deposited data

How the results depend on the processing

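Counts out of the 73 genes depended mainly on the peak limit. In the order both marks, H3K4me3 alone, H3K27Ac alone and neither in sgNeg, they were 38, 4, 12 and 19 with all peaks. They were 22, 19, 2 and 30 at a q-value under 0.01, and 9, 20, 0 and 44 under 1e-05. At a fold of at least 4 they were 10, 16, 0 and 47. With the 20000 peaks of lowest p-value per list, they were 8, 6, 3 and 56. Genes with H3K27Ac in sgNeg and sgNpm1A numbered 24 and 22 at 0.01, 9 and 0 at 1e-05, 10 and 4 at a fold of 4, and 11 and 7 in the top 20000. For H3K4me3 they numbered 26 and 7 at a fold of 4 and 14 and 5 in the top 20000, and 4 in sgNpm1A at 1e-05. Ranks of H3K27Ac were lower in sgNpm1A for 16 and higher for 19 genes at 0.01, and for 9 and 0 at 1e-05, where 3 ranked higher for H3K4me3. A window of 500 bp left 1 gene with H3K4me3 alone and 29 with neither, and 2 kb left 9 with neither. With the start of the gene record alone, 7 had H3K4me3 alone and 10 had sgNpm1A H3K4me3. With the canonical start alone, a choice made after seeing the data, 8 had sgNpm1A H3K4me3. With that start at a q-value under 1e-05, 7, 10, 1 and 55 fell in the 4 classes, 8 and 0 had H3K27Ac, and 17 and 0 had H3K4me3. Counting bases under peaks in place of fold took the ratio of the median of the 73 genes to that of other promoters from 0.727 to 0.450 for H3K27Ac. Of 132 values recomputed, 84 stayed within 1.5 times of the reported one. Among the 84 were 4 counts in windows shifted by 20 kb, where a like value means a count like that of the surroundings. Another 4 were shares of other promoters of the same CpG class. No paired analysis was possible because each group is 1 library. The effect of depth was not tested, and a missing peak does not show that a mark is absent.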
